A study of Mus musculus with 30 samples.

Results

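Genes of the dioxin receptor pathway and of the enzymes that oxidise, hydrolyse or reduce foreign compounds were followed in mouse ovaries after phthalate dosing. They were the 9 rows of the deposited expression table with the symbols Ahr, Arnt, Ahrr, Cyp1b1, Tiparp, Nqo1, Ephx1, Ephx2 and Por, among 18022 genes in all. The rows were found by symbol alone, and the set was proposed with earlier results of these data known. All 9 were found, and all 9 were among the 14740 genes that passed the filter on low values (mean log2 CPM above 0).

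The aryl hydrocarbon receptor (AHR) is a ligand-activated transcription factor that moves from the cytoplasm to the nucleus once it binds dioxins, polycyclic aromatic compounds or natural ligands. There it pairs with ARNT, binds DNA elements with the core GCGTG and switches on genes of foreign compound metabolism, among them P450 oxidases. The receptor also limits itself, since its targets include the repressor AHRR and the ADP-ribosyltransferase TIPARP. In the ovary the pathway is known for its part in follicle growth and for the loss of oocytes after exposure to polycyclic aromatic hydrocarbons.

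Whole ovaries were taken from CD1 mice, which are outbred, and the animals were adult females. Dosing lasted 10 days. One pair of treated groups was given 20 or 200 ug/kg/day of DEHP, di(2-ethylhexyl) phthalate. Another pair was given DiNP, diisononyl phthalate, with daily doses of 20 or 100 ug/kg, and the controls received the vehicle. Ovaries were collected 3 months after dosing or directly after it (0 months), which gave 10 groups of 3 libraries. Both compounds are diesters of phthalic acid used as plasticizers, and DiNP is a mixture whose branched side chains are longer than the 2-ethylhexyl chains of DEHP. Values are the authors' log2 CPM (log2 of the reads of a gene scaled to a common library size). The labels do not say that replicates are separate mice, and p-values here speak only of the variation among these libraries, which may be technical. In RNA of whole ovaries, fewer cells of a type and less RNA per cell cannot be told apart.

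From the spacing of low values, libraries held an estimated 24.8 to 40.7 M reads each (M, mega). Across genes, replicates gave r = 0.939 to 0.982 with each other. Every gene of the granulosa cell, theca cell, corpus luteum and oocyte marker lists passed the filter, so the markers that define ovarian tissue were present. The mean of the 10 corpus luteum markers ran between 8.79 and 11.00 log2 CPM at 3 months and between 5.79 and 10.74 at 0 months. Its lowest value belonged to replicate 3 of DEHP 200 at 0 months, and replicate 2 of that group stood at 10.63.

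Promoters of 4 of the genes are shown so that the AHR element can be read beside the values that follow. Por changed with time, Ahrr is a textbook AHR target, and Nqo1 and Ephx1 varied together. The sequences are RefSeq promoters of build GRCm38.p6, from 250 bases before to 50 bases after the start site, and capitals mark GCGTG or its reverse complement CACGC.
Por, chr5:135688895-135689194, plus strand: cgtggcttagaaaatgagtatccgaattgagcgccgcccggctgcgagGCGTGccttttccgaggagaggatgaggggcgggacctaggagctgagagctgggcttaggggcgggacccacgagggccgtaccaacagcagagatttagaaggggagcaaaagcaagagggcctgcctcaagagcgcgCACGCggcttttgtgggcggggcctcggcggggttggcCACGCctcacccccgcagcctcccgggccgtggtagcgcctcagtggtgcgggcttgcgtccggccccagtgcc
Ahrr, chr13:74292282-74292581, minus strand: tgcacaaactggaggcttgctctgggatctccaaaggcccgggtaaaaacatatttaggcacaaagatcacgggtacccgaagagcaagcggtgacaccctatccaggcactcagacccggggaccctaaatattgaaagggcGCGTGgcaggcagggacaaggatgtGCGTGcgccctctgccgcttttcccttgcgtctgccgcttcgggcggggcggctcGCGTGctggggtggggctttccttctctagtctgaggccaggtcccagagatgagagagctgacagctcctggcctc
Nqo1, chr8:107403156-107403455, minus strand: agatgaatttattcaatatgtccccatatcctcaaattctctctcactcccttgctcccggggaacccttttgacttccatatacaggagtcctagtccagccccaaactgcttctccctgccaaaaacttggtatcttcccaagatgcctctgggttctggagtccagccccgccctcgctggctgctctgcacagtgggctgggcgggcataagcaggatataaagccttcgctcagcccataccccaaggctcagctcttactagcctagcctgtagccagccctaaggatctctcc
Ephx1, chr1:181017520-181017819, minus strand: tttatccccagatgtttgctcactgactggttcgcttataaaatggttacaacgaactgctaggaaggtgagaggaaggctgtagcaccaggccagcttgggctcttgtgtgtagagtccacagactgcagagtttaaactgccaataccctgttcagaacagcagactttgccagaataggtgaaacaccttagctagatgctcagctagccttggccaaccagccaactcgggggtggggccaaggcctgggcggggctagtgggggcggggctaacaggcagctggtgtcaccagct
The Por and Ahrr promoters held 3 matches each, and those of Nqo1 and Ephx1 held 0. The Por window lies inside the span of the gene (135670040 to 135735326), at a start site downstream of its first base. Those of Ahrr, Nqo1 and Ephx1 lie where the gene begins.

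Of the 9 genes 7 had a promoter in the RefSeq table, and Ahr and Ephx2 are named only. Arnt, Cyp1b1 and Tiparp held 1 match each, so GCGTG, searched on both strands, was in 5 of the 7 promoters. It was in 49.7% of 11547 promoters of tested genes and in 32.4% of all 32851 promoters. The longer form TNGCGTG, which contains GCGTG, was in the Ahrr promoter and in 0 of the other 6, against 7.81% of promoters of tested genes. The core of the antioxidant response element, TGACNNNGC, to which NRF2 binds, had 2 matches in the Arnt promoter and 0 in the other 6, against 14.6% of promoters of tested genes. A match describes the letters in this window and is not a measured site.

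The genes differed widely in level per length of transcript. Ephx2 (Entrez 13850, chr14:66084372-66124522), the soluble epoxide hydrolase that turns epoxides of fatty acids into diols, had a median of 643 CPM per kilobase of exon over the 30 libraries. Ephx1 (Entrez 13849, chr1:180989556-181017569), the microsomal hydrolase for epoxides of foreign compounds, followed at 92.0 CPM per kilobase. Cyp1b1 (Entrez 13078, chr17:79706940-79715061), a P450 that oxidises estradiol and polycyclic aromatic hydrocarbons, stood at 49.5 CPM per kilobase. Por (Entrez 18984, chr5:135670040-135735326), the reductase that passes electrons of NADPH to microsomal P450 enzymes, stood at 27.1 CPM per kilobase. By median, the epoxide hydrolases, Cyp1b1 and Por therefore headed the order, ahead of the receptor genes. The enzyme gene Nqo1 stood below Arnt and Ahr.

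Tiparp (Entrez 99929, chr3:65528447-65555518), whose enzyme attaches ADP-ribose to AHR and lowers its activity, had a median of 22.5 CPM per kilobase. Arnt (Entrez 11863, chr3:95434367-95497240), the partner with which AHR binds DNA, had 11.4 CPM per kilobase. Ahr itself (Entrez 11622, chr12:35497979-35534989) had 3.82 CPM per kilobase. Nqo1 (Entrez 18104, chr8:107388225-107403205), a quinone reductase induced through AHR and NRF2, was close to it with 3.03 CPM per kilobase. Ahrr (Entrez 11624, chr13:74211118-74292331), the repressor that competes with AHR for ARNT, was lowest with 0.146 CPM per kilobase. The ranges of neighbours in this order over the 30 libraries overlapped, except that the range of Tiparp lay above that of Arnt. The same held for Arnt above Ahr and for Nqo1 above Ahrr. Coordinates are those of build GRCm38.p6.

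Among replicates the genes were unequally steady. Arnt ran between 6.20 and 6.71 log2 CPM over the 30 libraries, and its SD within groups was 0.13, against a median of 0.25 over all tested genes. Ephx2 ran between 8.26 and 12.01 log2 CPM with an SD within groups of 0.80. In DEHP 200 at 0 months Ephx2 stood at 9.52, 11.30 and 8.26 log2 CPM, so that the lowest of all 30 libraries and the highest at 0 months were replicates of the same group. Ahrr, between -0.55 and 1.27 log2 CPM, had an SD within groups of 0.40. The panels of values by library show this spread for each gene.

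**Figure D1:**
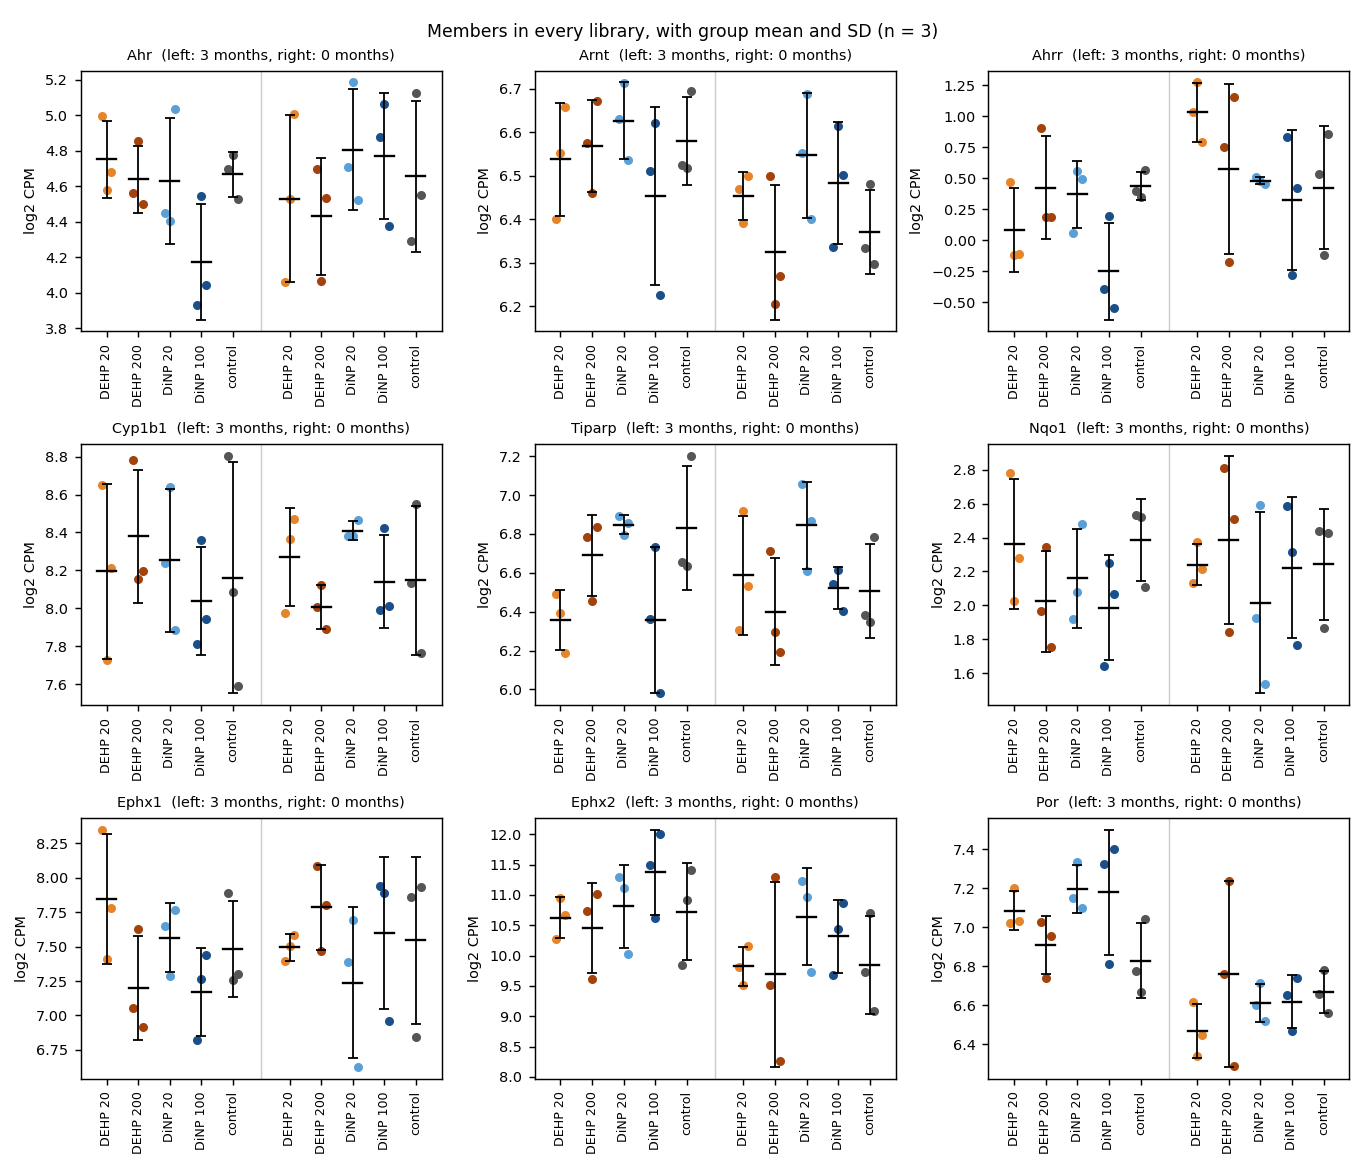
Log2 CPM of each of the 9 genes in all 30 libraries (points), by agent with dose in ug/kg/day, with group mean and SD (n = 3), 3 months left and 0 months right of the grey line. Por sits higher at 3 months, Ephx2 has the widest spread within groups, and treated groups overlap the controls for most genes.

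The first question was whether either phthalate changed these genes against the vehicle. In limma fits over all genes, 0 of 72 tests (9 genes in 8 treated groups) passed an adjusted p of 0.05, with a lowest adjusted p of 0.518. Over all genes the percentage that passed was 0 in each of the 8 comparisons. Without adjustment 3 of the 72 tests had a p under 0.05, against 3.14% of the 117920 tests over all genes. The 3 libraries of the treated group lay all above or all below the 3 controls in 3 of the 72 pairs of groups (4.17%), against 7.25% over all genes. The counts for these 9 genes were therefore near those for genes in general.

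The bounds differ by gene, because the spread within groups does. The receptor gene Ahr differed between treated and control ovaries by -0.49 (DiNP 100, 3 months) to 0.15 (DiNP 20, 0 months) on the log2 scale, with 95% intervals of ± 0.53 around each difference. Its partner Arnt stayed between -0.13 and 0.18, with intervals of ± 0.22, the narrowest of the 9. For Ahrr the differences ran between -0.69 (DiNP 100, 3 months) and 0.61 (DEHP 20, 0 months), with intervals of ± 0.69. In DiNP 100 ovaries at 3 months Ahrr was at -0.39, 0.19 and -0.55 log2 CPM, against 0.39, 0.35 and 0.57 in controls. All 3 DiNP 100 libraries lay below the 3 controls, as in 3.05% of all genes in that comparison, and the difference did not pass (-0.69 ± 0.34, SE; limma adjusted p = 0.518).

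Among the AHR target genes, Cyp1b1 differed from controls by -0.14 (DEHP 200, 0 months) to 0.26 (DiNP 20, 0 months), with 95% intervals of ± 0.56. Control values alone spread more than that: at 3 months Cyp1b1 stood at 8.80, 8.09 and 7.59 log2 CPM in the 3 controls. Nqo1 differed by -0.40 (DiNP 100, 3 months) to 0.14 (DEHP 200, 0 months), with intervals of ± 0.60. No induction of either gene was detectable with 3 libraries a group.

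Tiparp gave the lowest unadjusted p of the 72 tests. At 3 months it stood at 6.49, 6.39 and 6.19 log2 CPM in DEHP 20 ovaries and at 6.36, 6.73 and 5.98 in DiNP 100 ovaries, against 6.66, 6.64 and 7.20 in controls. The DEHP 20 libraries lay below all 3 controls, as in 2.5% of all genes in that comparison, and the DiNP 100 libraries overlapped them. The differences were -0.47 ± 0.19 (SE; limma adjusted p = 1.00) with DEHP 20 and -0.47 ± 0.19 (limma adjusted p = 0.518) with DiNP 100. The intervals reached from -0.87 to -0.07 before any adjustment over genes. DEHP 200 at 3 months gave -0.14 and DiNP 20 gave 0.02, so the 2 larger differences did not belong to 1 compound or to the higher doses. A test of any difference among treated groups and controls at 3 months gave F = 3.19 for Tiparp (limma adjusted p = 0.957), and 0% of genes passed it.

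The epoxide hydrolases and the reductase gave no difference from controls that passed. Ephx1 differed by -0.31 (DiNP 100, 3 months) to 0.36 (DEHP 20, 3 months), with 95% intervals of ± 0.67. Ephx2 differed by -0.27 (DEHP 200, 3 months) to 0.80 (DiNP 20, 0 months), with intervals of ± 1.27, the widest of the 9, so that even a change of that size could not be told from none. Por differed by -0.20 (DEHP 20, 0 months) to 0.37 (DiNP 20, 3 months), with intervals of ± 0.36. In DiNP 20 ovaries at 3 months Por stood at 7.15, 7.34 and 7.10 log2 CPM, against 6.77, 6.67 and 7.04 in controls. All 3 lay above the controls, as in 2.97% of all genes in that comparison, and the difference of 0.37 ± 0.17 (SE) did not pass (limma adjusted p = 1.00). With array weights 4 of the 72 tests passed, Por in DEHP 20, DEHP 200 and DiNP 20 at 3 months (0.45, 0.27 and 0.52) and Nqo1 in DEHP 200 at 3 months (-0.60). That is 5.56% of the 72, against 3.43% of the 117920 tests over all genes (4050) with the same weights. The estimation of those weights stopped before it converged and gave 1 of the 3 controls at 3 months a weight of 35.1, against at most 3.87 elsewhere.

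In DiNP 100 ovaries at 3 months 7 of the 9 genes were lower than in controls, with a median of -0.31, against a median of 0.01 over all genes. In DEHP 200 ovaries at 3 months 7 of the 9 were lower as well, with a median of -0.027, against -0.0094 over all genes. With DiNP 100 the other 2 were Ephx2 (0.65) and Por (0.35), and there 9.28% of all genes had an unadjusted p under 0.05, against 1.44% to 5.02% in the other 7. Over all genes 51.5% were higher than in controls with DiNP 100 and 47.1% with DEHP 200 at 3 months. In the remaining comparisons with controls, 3 to 5 of the 9 genes were lower.

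**Figure D2:**
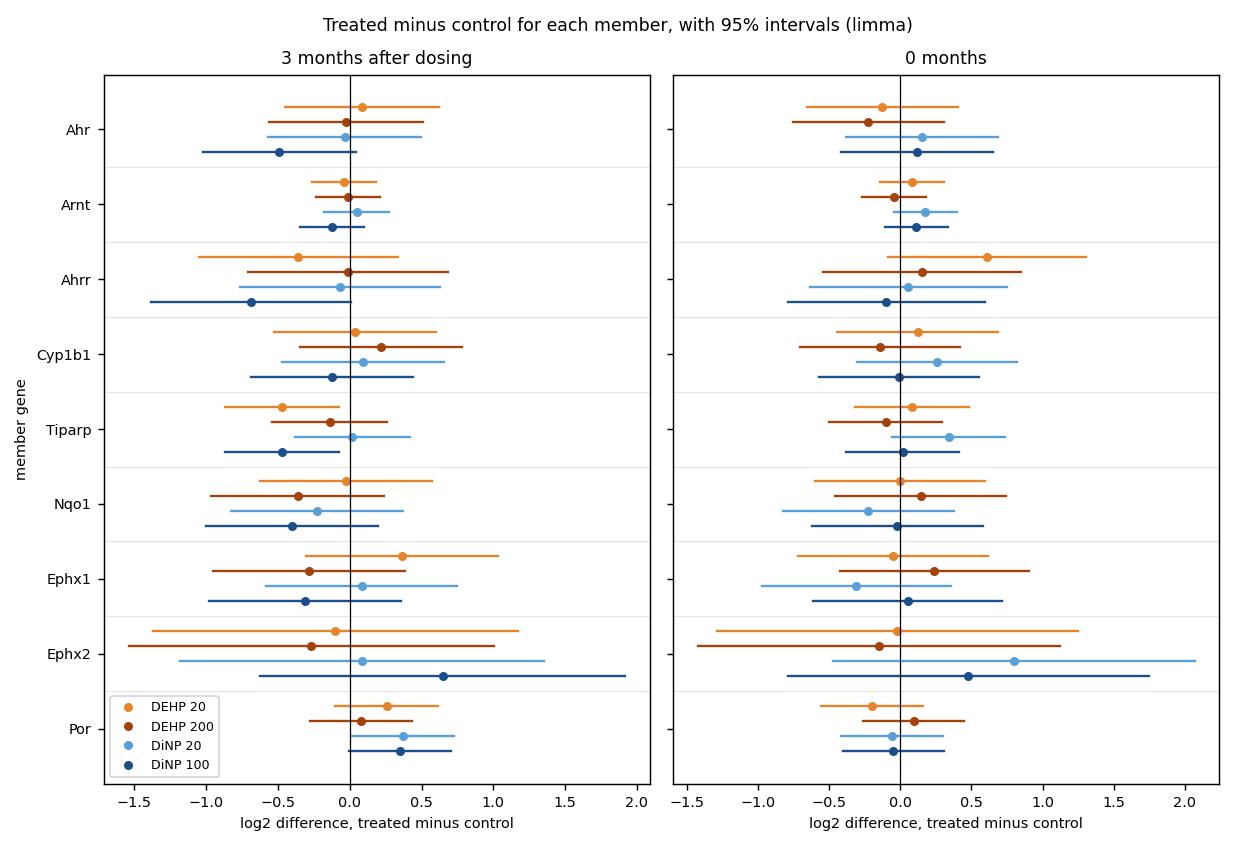
Treated minus control difference (log2 scale, x axis) of each gene with its 95% limma interval, 3 months left and 0 months right, colours for agent and dose in ug/kg/day. Intervals of Ephx2 are the widest (± 1.27) and those of Arnt the narrowest (± 0.22), and all but 3 of the 72 cross 0.

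DEHP and DiNP were compared directly at 20 ug/kg/day, the dose they share. Of 18 tests (9 genes at 2 times) 0 passed in limma (lowest adjusted p 1.00), and 0% of all genes passed at either time. Before adjustment 1 of the 18 had a p under 0.05, against 2.9% of all genes at 3 months and 2.05% at 0 months. At 3 months Tiparp stood at 6.49, 6.39 and 6.19 log2 CPM with DEHP 20, against 6.89, 6.80 and 6.85 with DiNP 20. The groups did not overlap, as in 4.12% of all genes in this direction, and the difference was -0.49 ± 0.19 (SE; 95% interval -0.89 to -0.09; limma adjusted p = 1.00). At 0 months Ahrr stood at 1.03, 1.27 and 0.79 log2 CPM with DEHP 20, against 0.51, 0.48 and 0.45 with DiNP 20. These groups did not overlap either, as in 4.84% of all genes in this direction, and the difference was 0.55 ± 0.34 (SE; 95% interval -0.14 to 1.25; limma adjusted p = 1.00). For the other genes the intervals include 0 and differ in width: for Arnt they reached from -0.31 to 0.13 at 3 months and from -0.32 to 0.13 at 0 months, and for Ephx2 from -1.46 to 1.09 at 3 months and from -2.09 to 0.45 at 0 months. A p that misses the threshold does not show that the compounds act alike.

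Within a compound, 0 of 36 tests of the higher against the lower dose passed (0% of all genes in each of the 4 comparisons). The lowest limma adjusted p was 0.405. An unadjusted p under 0.05 was found in 1 test, Tiparp between the DiNP doses at 3 months. In that comparison 12.2% of all genes had such a p. Tiparp at 3 months was at 6.36, 6.73 and 5.98 log2 CPM with DiNP 100, against 6.89, 6.80 and 6.85 with DiNP 20. The groups did not overlap, as in 4.34% of all genes in this direction, with a difference of -0.49 ± 0.19 (SE; limma adjusted p = 0.405). Without replicate 2 of DiNP 100, the highest of its group, the difference was -0.68 (limma adjusted p = 0.0426), and without replicate 3, the lowest, it was -0.30 (limma adjusted p = 1.00). The fit without replicate 2 also gave 633 calls over all genes against controls, where the fit of all libraries gave 0. The share of all genes that passed between the DiNP doses in that fit was not counted. For DEHP the Tiparp difference of the higher and the lower dose was 0.33 ± 0.19 (SE; limma adjusted p = 1.00). Ephx1 at 3 months differed by -0.65 ± 0.32 between DEHP 200 and DEHP 20 (SE; limma adjusted p = 1.00).

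Time since dosing was compared with 15 libraries on each side. Averaged over the 5 agents (vehicle included), Por rose at 3 months, and it was the 1 gene of the 9 to pass. Over all genes 20.3% passed (10.6% higher and 9.63% lower), so 1 of 9 was no more than the general share. Age at collection and time since dosing cannot be told apart in this design. At 3 months Por stood at 7.02, 7.20 and 7.03 log2 CPM with DEHP 20, 7.03, 6.74 and 6.95 with DEHP 200, 7.15, 7.34 and 7.10 with DiNP 20, 7.32, 6.81 and 7.40 with DiNP 100, and 6.77, 6.67 and 7.04 in controls. At 0 months it stood at 6.62, 6.34 and 6.45 with DEHP 20, 6.76, 7.24 and 6.29 with DEHP 200, 6.60, 6.71 and 6.52 with DiNP 20, 6.65, 6.47 and 6.74 with DiNP 100, and 6.66, 6.78 and 6.56 in controls. All 15 libraries at 3 months lay above the median at 0 months (6.62), and 3 of them above every library at 0 months.

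The averaged difference of Por was 0.41 ± 0.08 (SE; 1.33-fold; limma adjusted p = 0.00139), higher at 3 months in 5 of 5 agents. With DEHP 20 it averaged 7.08 ± 0.10 log2 CPM at 3 months and 6.47 ± 0.14 at 0 months (SD, n = 3 each), and the groups did not overlap, as in 10.4% of all genes in this direction. With DiNP 20 it averaged 7.20 ± 0.12 at 3 months and 6.61 ± 0.10 at 0 months, again without overlap (8.99% of all genes). DiNP 100 gave 7.18 ± 0.32 at 3 months and 6.62 ± 0.14 at 0 months, without overlap (8.17% of all genes). The groups overlapped with DEHP 200, at 6.91 ± 0.15 at 3 months and 6.76 ± 0.48 at 0 months, and in controls, at 6.83 ± 0.19 at 3 months and 6.67 ± 0.11 at 0 months. In controls alone the difference was 0.16 ± 0.17 (SE; limma adjusted p = 0.829), and 1 gene of 14740 passed there (0.00678%), with 1176 (7.98%) at an unadjusted p under 0.05. Whether the rise in treated ovaries exceeded that in controls was tested as treatment by time. For Por it gave 0.46 ± 0.24 (SE) under DEHP at 20 ug/kg/day and -0.01 under DEHP at 200 ug/kg/day. Under DiNP it gave 0.42 at 20 ug/kg/day and 0.40 at 100 ug/kg/day. Of 36 such tests of the 9 genes 0 passed in limma (0% of all genes; lowest adjusted p 0.997), and 0 had a p under 0.05 before adjustment.

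Of the other genes, 3 came near the threshold for time without passing it. Ephx2 was higher at 3 months in 5 of 5 agents, with a median of 10.92 (9.62 to 12.01) log2 CPM at 3 months and 9.81 (8.26 to 11.30) at 0 months, and differed by 0.73 ± 0.27 (SE; limma adjusted p = 0.0609). It passed when replicate 2 of DEHP 200 at 0 months, its highest library at 0 months, was left out (0.89, limma adjusted p = 0.00908). Arnt differed by 0.12 ± 0.05 (SE; limma adjusted p = 0.0866), higher in 4 of 5 agents. Ahrr differed by -0.35 ± 0.15 (SE; limma adjusted p = 0.0949), lower in 4 of 5 agents. Its groups did not overlap with DEHP 20, where it stood at 0.47, -0.12 and -0.11 log2 CPM at 3 months, against 1.03, 1.27 and 0.79 at 0 months (11.3% of all genes in this direction). In controls Ahrr differed by 0.01, and the test of that contrast with DEHP 20 gave -0.97 ± 0.47 (SE; limma adjusted p = 1.00).

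Ahr (-0.07 ± 0.12, SE), Cyp1b1 (0.01 ± 0.12), Tiparp (0.05 ± 0.09), Nqo1 (-0.04 ± 0.13) and Ephx1 (-0.08 ± 0.14) were the smallest differences over time, with limma adjusted p from 0.719 to 0.961. Signs of differences this small moved with scaling: Cyp1b1 was at -0.054 and Tiparp at -0.011 after quantile normalization. The receptor, its repressor and its targets thus had no common direction over time.

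Other genes of the pathway were counted from 6 lists chosen with results of these data known, 80 distinct genes of which passed the filter. Hmox1 and Nfe2l2 are each on 2 of the lists, and Cyp17a1, Cyp19a1 and Fdx1 are also on cell type marker lists. Over time 27 of them passed, 24 higher and 3 lower (33.75%, against 20.3% of all genes), with a median difference of 0.15, against 0.00 over all genes. In the list of AHR targets 7 of the 9 genes tested passed, 5 higher and 2 lower, out of 13 listed. Xdh, which encodes xanthine dehydrogenase, averaged 5.56 ± 0.50 log2 CPM at 3 months and 4.35 ± 0.41 at 0 months (SD, n = 15 each), a difference of 1.21 ± 0.16 (SE; limma adjusted p = 8.15e-05). Ugt1a7c, a glucuronosyltransferase, differed by 0.90 ± 0.17 (SE; limma adjusted p = 0.00174). Ugt1a6a (1.12) and Ugt1a6b (1.11), named after their values were seen, belong to the same locus, whose genes share exons. Reads of these 3 genes cannot be told apart with certainty, and 3 of the 5 higher calls may therefore count the same reads. The 2 lower genes, named after their values were seen, were the cytokine signalling suppressor Socs2 (-0.37 ± 0.08, SE) and the cyclin Ccng2 (-0.17 ± 0.05).

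In the NRF2 list 7 of 20 passed, against 20.3% of all genes, and all 7 were higher at 3 months. They include Nfe2l2, the gene of NRF2 itself (0.22 ± 0.06, SE; limma adjusted p = 0.00992), and Hmox1, heme oxygenase, which also takes electrons from the reductase (0.72 ± 0.19; limma adjusted p = 0.0120). Among P450 electron transfer genes and other enzymes fed by Por, 6 of 19 passed, 5 higher and 1 lower. Cyp4f13, a fatty acid hydroxylase, differed by 0.55 ± 0.11 (SE; limma adjusted p = 0.00292), and the lower gene, named after its value was seen, was the aromatase gene Cyp19a1 (-1.07 ± 0.38; limma adjusted p = 0.0487). Cyp19a1 thus changed against Por, while the 5 higher genes of the list changed in the direction of Por. Cyp19a1 is also a granulosa cell marker, and those markers were lower at 3 months as well.

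Partners of AHR passed in 2 of 11, the NF-kappaB subunit gene Rela (0.17 ± 0.04, SE) and the clock gene Arntl (0.29 ± 0.09), both higher. Nuclear receptors of the phthalate and xenobiotic response and their targets passed in 2 of 8, both higher, among them the retinoid receptor Rxra (0.14 ± 0.05). Over all genes 20.3% passed for time (10.6% higher and 9.63% lower), and the counts of 2 of 11 and 2 of 8 were near the 20.3%. Conjugation and hydrolysis enzymes passed in 5 of 15, all higher, with Ugdh (0.18 ± 0.04), which makes UDP-glucuronic acid, and the carbonyl reductase Cbr3 (0.27 ± 0.08) at the smallest p. Cyp1a1, Cyp1a2 and the other listed genes with no row in the table were not analysed here.

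Against controls, 0 of 640 tests of the 80 distinct genes passed (0% of all genes), with a lowest limma adjusted p of 0.518. An unadjusted p under 0.05 was found in 14 of the 640, against 3.14% of the 117920 tests over all genes. Between DEHP 20 and DiNP 20, 0 of 160 passed, with 3 at an unadjusted p under 0.05 (2.9% of all genes at 3 months and 2.05% at 0 months). In the test of any treatment effect 0 of 160 passed, with 2 at an unadjusted p under 0.05 (3.99% of all genes at 3 months and 2.2% at 0 months). The 2 were Ncoa2, a coactivator gene, at 3 months (F = 3.36; limma adjusted p = 0.957) and Cyp4f13 at 0 months (F = 2.82; limma adjusted p = 1.00).

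**Figure D3:**
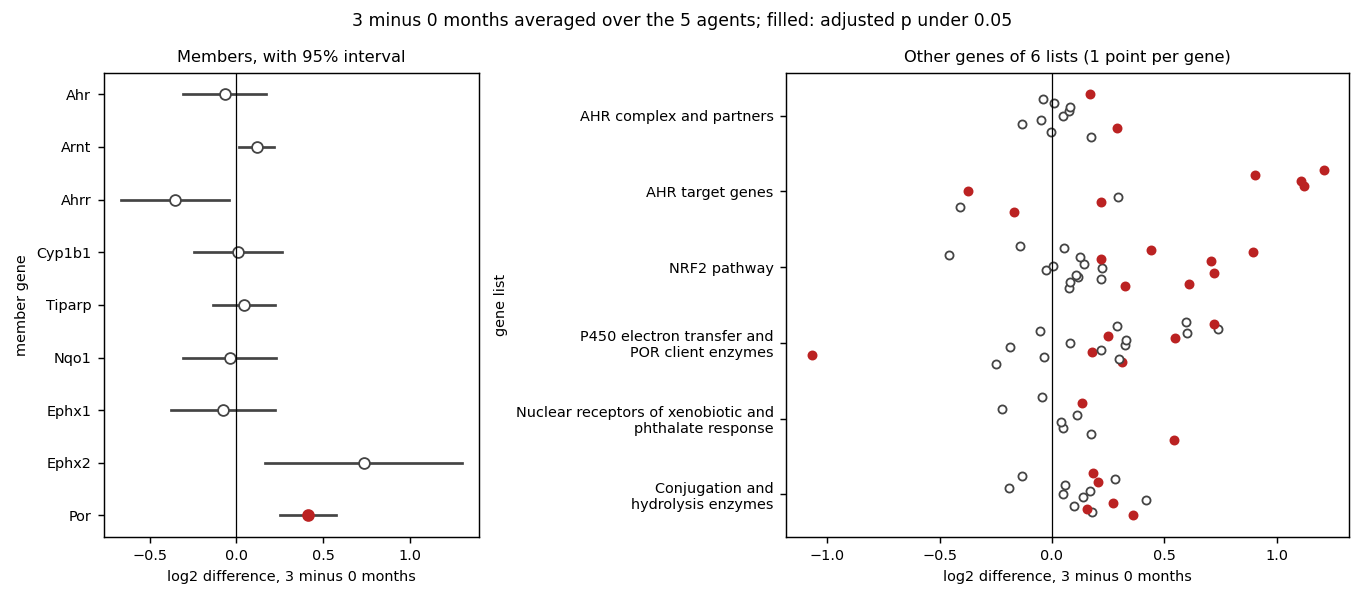
Difference of 3 minus 0 months averaged over the 5 agents (log2 scale, x axis), left for the 9 genes with 95% limma intervals and right for the genes of the 6 lists, 1 point per gene, filled where the limma adjusted p is under 0.05. Por is filled at 0.41 on the left, and on the right 24 distinct genes are filled above 0 and 3 below it.

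Markers of ovarian cell types moved over the same interval. Macrophage markers rose in 9 of 9 genes (list mean 4.04 to 5.14 log2 CPM at 3 months and 3.29 to 4.32 at 0 months), where 10.6% of all genes passed as higher. Of the oocyte markers 9 of 9 were lower at 3 months and 8 passed (list mean 3.55 to 4.88 at 3 months and 4.32 to 5.51 at 0 months). Of the granulosa cell markers 10 of 10 were lower and 9 passed (6.74 to 7.68 at 3 months and 7.39 to 8.21 at 0 months), where 9.63% of all genes passed as lower. Of the corpus luteum markers 2 of 10 passed, both higher, Hsd3b1 and Akr1c18, and the list averaged 10.21 at 3 months and 9.18 at 0 months. With the corpus luteum mean as a covariate, a fit chosen after seeing the data, the time difference of Por was 0.24 (limma adjusted p = 0.0262) and that of Ephx2 was 0.03 (limma adjusted p = 0.966). In that fit 450 genes passed for time. The parts of macrophage, oocyte and granulosa cell content in these results were not tested.

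Across the 30 libraries, relations were computed between each of the 9 genes and 12 marker lists (108 relations) and between the genes in pairs (36 relations). Of these, 22 and 7 had a Benjamini-Hochberg adjusted permutation p under 0.05 for Pearson's r. The permutations shuffled all 30 libraries without regard to group or time. A difference over time shared by both sides can therefore also give a small permutation p. Ephx2 followed the corpus luteum mean with r = 0.897 and Spearman's rho = 0.899 (permutation p = 1e-05, the smallest that the permutations can give; adjusted 0.00027 for r and 0.00022 for rho). The relation was r = 0.898 within 3 months and 0.869 within 0 months (n = 15 each), and r = 0.880 without the 2 libraries farthest from the median of the markers. With oocyte markers Ephx2 gave r = -0.809 and rho = -0.821 (permutation p = 1e-05 for each; adjusted 0.00027 for r), r = -0.726 within 3 months, r = -0.830 within 0 months and r = -0.800 without the 2 farthest. With macrophage markers it gave r = 0.689 and rho = 0.683 (permutation p = 6e-05 and 5e-05; adjusted 0.0011 for r), r = 0.559 within 3 months, r = 0.641 within 0 months and r = 0.687 without the 2 farthest. Granulosa cell (r = -0.606), endothelium (0.599) and adipocyte markers (-0.482) also passed for r, with adjusted permutation p of 0.0055, 0.0055 and 0.043 and rho of -0.592, 0.579 and -0.382. Without the 2 farthest libraries these were r = -0.573, 0.544 and -0.279, so the adipocyte relation rests in part on those libraries. Within 3 months the relations were r = -0.425, 0.574 and -0.412, and within 0 months -0.499, 0.469 and -0.470. The adipocyte relation did not pass for rho (adjusted permutation p = 0.13). Ephx2 therefore varied with markers of several cell types, and these marker means were not separated from each other.

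Por followed the same marker mean with r = 0.733 and rho = 0.742 (permutation p = 1e-05 for each; adjusted 0.00027 for r), r = 0.602 within 3 months, r = 0.672 within 0 months and r = 0.699 without the 2 farthest libraries. With oocyte markers Por gave r = -0.804 and rho = -0.817 (permutation p = 1e-05 for each; adjusted 0.00027 for r), r = -0.476 within 3 months, r = -0.782 within 0 months and r = -0.802 without the 2 farthest. With macrophage markers Por gave r = 0.737 and rho = 0.760 (permutation p = 2e-05 and 1e-05; adjusted 0.00043 for r), r = 0.552 within 3 months, r = 0.388 within 0 months and r = 0.734 without the 2 farthest. With endothelium markers it gave r = 0.584 and rho = 0.560 (permutation p = 0.00075 and 0.0016; adjusted 0.0071 for r), r = 0.380 within 3 months, r = 0.540 within 0 months and r = 0.529 without the 2 farthest. With granulosa cell markers it gave r = -0.600 and rho = -0.624 (permutation p = 0.00039 and 0.0002; adjusted 0.0055 for r) and r = -0.579 without the 2 farthest. That relation did not hold within 3 months (r = -0.258) or within 0 months (r = -0.0823). Arnt, Ahrr, Nqo1 and Ephx1 held the other relations that passed for r. Ahrr passed with macrophage (r = -0.579), corpus luteum (-0.566), oocyte (0.555) and granulosa cell markers (0.530). The adjusted permutation p for Ahrr were 0.0071, 0.0071, 0.014 and 0.018. Arnt passed with oocyte (r = -0.547), granulosa cell (-0.54) and corpus luteum markers (0.461), with adjusted permutation p of 0.014, 0.016 and 0.043. Nqo1 passed with corpus luteum (r = -0.484), stromal fibroblast (0.472) and oocyte markers (0.470). Their adjusted permutation p were 0.032, 0.043 and 0.043. Ephx1 passed with theca cell markers (r = 0.474, adjusted permutation p = 0.043). With corpus luteum and oocyte markers Ephx1 passed for rho and not for r (rho = -0.483 and 0.503, adjusted permutation p = 0.035 and 0.028).

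Among the pairs, the detoxifying enzymes Nqo1 and Ephx1 had the highest correlation, r = 0.857 and rho = 0.794 (permutation p = 1e-05 for each; adjusted 0.00018 for r). It was r = 0.801 within 3 months, r = 0.902 within 0 months and r = 0.808 without the 2 farthest libraries. After the mean of each group was subtracted, the relation was r = 0.860. Neither gene had a treatment or time difference that passed without array weights. Both genes also varied with cell type markers, as given above, and the cause of their relation was not tested. Ephx2 and Por gave r = 0.724 and rho = 0.697 (permutation p = 1e-05 and 6e-05; adjusted 0.00018 for r), r = 0.663 within 3 months, r = 0.632 within 0 months and r = 0.668 without the 2 farthest. Ahrr ran against Ephx2, with r = -0.674 and rho = -0.573 (permutation p = 4e-05 and 0.0011, adjusted 0.00048 for r). That relation was r = -0.458 within 3 months, r = -0.700 within 0 months and r = -0.584 without the 2 farthest. Ahrr with Por (r = -0.607, adjusted permutation p = 0.0036) and Nqo1 with Ephx2 (r = -0.52, adjusted permutation p = 0.022) also passed. Ahrr, Nqo1, Ephx2 and Por each varied with cell type markers, as given above, and the causes of these relations were not tested.

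The receptor and its targets were more loosely related. Ahr and Nqo1 gave r = 0.490 and rho = 0.527 (permutation p = 0.0061 and 0.0033; adjusted 0.033 for r), with r = 0.794 within 3 months, r = 0.267 within 0 months and r = 0.376 without the 2 farthest libraries. Arnt and Tiparp gave r = 0.489 and rho = 0.456 (permutation p = 0.0064 and 0.012; adjusted 0.033 for r), r = 0.679 within 3 months, r = 0.305 within 0 months and r = 0.340 without the 2 farthest. Ahr with Cyp1b1 (r = 0.358, permutation p = 0.052, adjusted 0.14) and Ahr with Tiparp (r = 0.246, permutation p = 0.19, adjusted 0.39) did not pass.

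**Figure D4:**
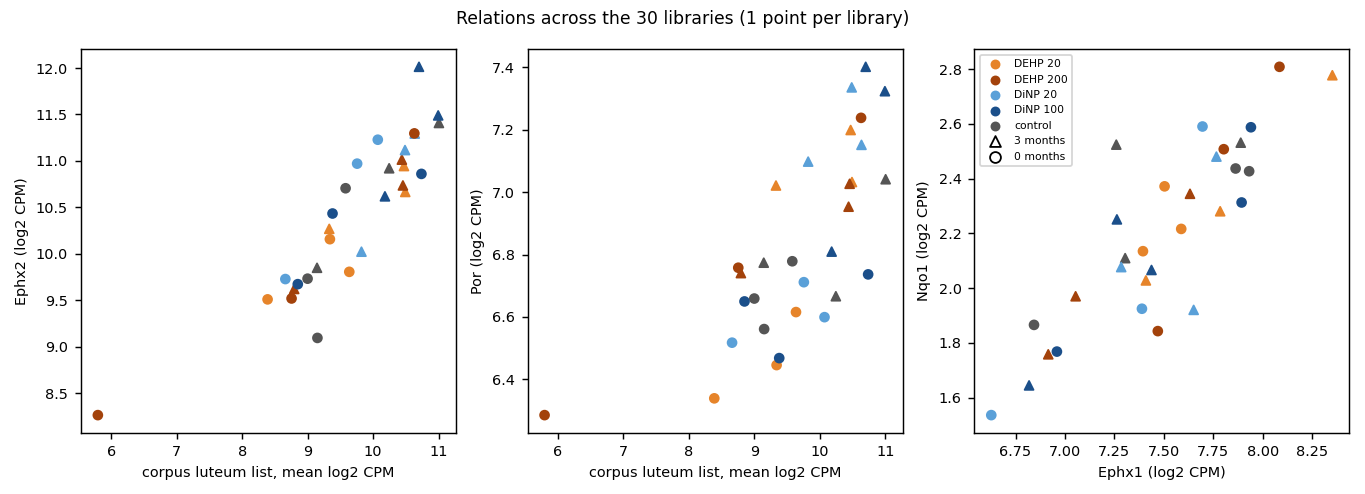
Ephx2 and Por against the mean of the 10 corpus luteum markers and Nqo1 against Ephx1 (log2 CPM on all axes), 1 point per library, triangles for 3 months and circles for 0 months, colours for agent and dose in ug/kg/day. Points rise together in each panel (r = 0.897, 0.733 and 0.857), and replicate 3 of DEHP 200 at 0 months lies at the low end of the first 2.

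Over all 14740 genes, the pattern most like each gene was described by Pearson's r over the 30 libraries, which share tissue and composition. Ephx2 was most like Shisa5 (0.983), Slc35f6 (0.972) and S100a6 (0.971). Arnt was most like Tgfbrap1 (0.914), Fat4 (0.890) and Setd7 (0.879), and Por like Dhrs7 (0.880), Ptp4a2 (0.880) and Sqstm1 (0.878). For Nqo1 the nearest gene in the whole table was Ephx1 (0.857), ahead of Caprin2 (0.846) and Chdh (0.799), and for Ephx1 it was Nqo1, ahead of Itpkb (0.840) and Sptb (0.834). Ahr was most like Fbxo32 (0.784), Pik3r1 (0.779) and Eml4 (0.778), Ahrr like Dnajc27 (0.788), Tenm2 (0.756) and Tet1 (0.743), and Tiparp like Glce (0.783), Dhx36 (0.764) and Tcf20 (0.752). Cyp1b1 had the weakest likeness, with Zfp947 (0.613), Zfp677 (0.593) and Zfp647 (0.582).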

How the data were processed

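Messenger RNA of whole ovaries was measured in 30 libraries (10 groups of 3). Per the labels' protocols, RNA was extracted with RNeasy columns including DNase and stranded TruSeq libraries were sequenced from one end on an Illumina HiSeq instrument. The submitters' processing notes name FastQC 0.11.8, Salmon 0.11.3, edgeR, R 3.5.2 and build GRCm38.p6. The authors deposited log2 CPM values, with a lowest value of -3.34 and back-transformed column sums between 907668 and 1164842. Their prior count and scaling are not given in the sources used here. The prior keeps low genes such as Ahrr from reaching 0 and understates their changes. Counts were not recovered, and the read depth given is an estimate from the spacing of low values. The number of columns left out was 0.

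The 14740 genes whose mean over the libraries exceeded 0 log2 CPM were fitted in limma 3.58.1 (R 4.3.3). The model had a mean for each of the 10 groups, and its prior variance followed the expression level. The fit had 20 residual and 2.85 prior degrees of freedom. P-values were Benjamini-Hochberg adjusted within each comparison over all 14740 genes, and an adjusted p under 0.05 passed. The script was tested on simulated data. Correlations used 100000 permutations of the 30 libraries, without regard to group or time. Levels per kilobase divide CPM by the union of exons (GENCODE vM21), and promoters were matched by gene in RefSeq.

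The 9 genes, the 6 pathway lists and the 12 marker lists were chosen with earlier results of these data known. All 9 genes are named. From each pathway list come at most the 2 genes with the smallest p for time and for any treatment effect, and others are marked as named after their values were seen. The values of 1 such gene are not reported here. Alternatives to these settings were quantile normalization, median centring, a filter above 2 or none, a pseudocount of 1 CPM, a fit with no trend, array weights, separate fits per time, replicate number as a block, leaving out each library and a corpus luteum covariate.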

Additional observations from a re-analysis of the deposited data

How the results depend on the processing

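Under 10 alternatives and 30 fits that left out 1 library, 1214 of 1265 values were classed as unchanged. A difference was unchanged if it kept its direction and its side of the threshold. The values also include counts of genes that passed, and a count was unchanged if it equalled the main count or lay near it. For Por over time all differences were unchanged (0.24 to 0.46, adjusted p = 0.000123 to 0.0262, limma). With array weights, whose estimation did not converge, 4 tests of the 9 genes against controls passed, 1 of any treatment effect (Por at 3 months), 1 of time in controls (Ephx2), 1 of treatment by time (Por with DEHP 20) and 2 of time over all groups (Por and Ephx2). Over all genes they gave 4050 calls in 117920 tests against controls and 4490 for time. With the corpus luteum covariate, chosen after seeing the data, 450 genes passed for time, and Ahr (0.057), Nqo1 (0.15) and Ephx1 (0.094) changed sign. Cyp1b1 changed sign over time with median centring (-0.000435), quantile normalization (-0.054) and array weights (-0.019), and Tiparp with quantile normalization (-0.011) and array weights (-0.00306). These causes were not tested.

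Leaving out each library gave 1 to 3 of the 9 genes and 2147 to 4389 genes in all for time, 0 to 1 for dose, and 0 to 633 genes in all against controls (633 without replicate 2 of DiNP 100 at 3 months, 4 without replicate 3 of the controls at 0 months). The differences over time then ran from -0.054 to 0.067 for Cyp1b1 and from -0.092 to 0.019 for Nqo1. Ephx2 passed in 7 of those fits, Ahrr in 1 (without replicate 2 of DEHP 200 at 0 months: -0.43, adjusted p = 0.0238, limma) and Arnt in 1 (without replicate 3 of DiNP 100 at 3 months: 0.14, adjusted p = 0.0303, limma).

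Replicate numbers did not pair the samples: residuals of same-numbered libraries correlated at a mean of -0.04 at 3 months and -0.02 at 0 months, and 10 of 30 libraries correlated best with their own number. With the replicate block 0 of the 9 genes passed against controls and 1, Por, passed for time (2678 genes in all). Separate fits per time gave no value across times, and the filter above 2 gave none for Ahrr. Groups of 3 libraries limit the detectable size, most of all for Ephx2.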
